A study of Mus musculus with 4 samples.

Results

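The heat shock chaperones described here are 10 genes of the cytosolic protein-folding machinery, Hsph1, Hspa8, Hspa1a, Hspa1b, Dnaja1, Dnajb1, Hsp90aa1, Hsp90ab1, Stip1 and Chordc1, taken by their symbols from the 55357 genes of the deposited matrices. All 10 were found. They were measured in 4 single-cell RNA libraries of mouse retina, 2 labelled Diabetic and 2 labelled Ctrl, made with the 10x 3′ v3 chemistry from cells enriched with CD31 beads (CD31, encoded by Pecam1, is a surface protein of endothelial cells). The diabetes model, its duration, and the strain, sex, age and number of animals behind a library are not in the labels. P-values of tests within a class therefore measure the spread between these 4 libraries, which may be technical. Tests between classes take out each library's own level, so their p-values measure the spread left among class sums of the same 4 libraries. The genes were chosen by their Diabetic against Ctrl difference: an earlier analysis of these same libraries had found several of them lower in Diabetic than in Ctrl endothelial cells. Their own Diabetic against Ctrl values are therefore given as a description, without a test. What the choice did not use, and what is tested, is how the levels of the 10 genes differ between cell classes. Genes of other lists are tested as well, but those lists were chosen with earlier results of these data known. The difference in the size of the change between classes is also tested, but endothelial cells, whose change was known, stand on one side of it.

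Heat shock proteins bind unfolded or partly folded proteins and help them fold. Proteins of the HSP70 family hold and release stretches of a client in a cycle driven by ATP, which J-domain proteins start and HSP110 proteins help to reset by exchanging the nucleotide. HSP90 takes over late-stage clients such as kinases and steroid receptors, and the adaptor Stip1 bridges HSP70 and HSP90. The stress-induced members are transcribed by the heat shock factor Hsf1, which binds repeats of the unit nGAAn in their promoters. Tissue dissociation is itself known to induce some of these genes in single-cell preparations.

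Promoter windows of 300 bases, from 250 before to 50 after a start site, were taken from RefSeq (build GRCm38.p6) for 7 of the 10 genes in 11 windows. Hsp90aa1, Hsp90ab1 and Hspa8 had no window in the table. Each window was searched for a pair of opposed heat shock units (TTCNNGAA or GAANNTTC, each its own reverse complement, so both strands are covered) and for a run of 3 such units (TTCNNGAANNTTC or GAANNTTCNNGAA, each the other's reverse complement). Matches of the shorter and the longer motif may overlap. Of all 32851 windows in the table, 15.1% held the pair and 0.603% held the run of 3. Counted by gene, 17.0% of 27025 genes had a window with the pair and 0.662% had one with the run of 3. The pair was found in 5 of the 7 genes (Hsph1, Chordc1, Dnaja1, Hspa1a and Hspa1b) and the run of 3 in 2, Hsph1 and Chordc1. Dnajb1 and Stip1 held neither. Windows of 4 genes are shown because they set the matches beside different behaviour in endothelial cells: Hsph1, Chordc1 and Stip1 were lower in Diabetic libraries there, and Hspa1a was not. Capitals mark matched bases, and each window runs 5′ to 3′ along its gene.
Hsph1: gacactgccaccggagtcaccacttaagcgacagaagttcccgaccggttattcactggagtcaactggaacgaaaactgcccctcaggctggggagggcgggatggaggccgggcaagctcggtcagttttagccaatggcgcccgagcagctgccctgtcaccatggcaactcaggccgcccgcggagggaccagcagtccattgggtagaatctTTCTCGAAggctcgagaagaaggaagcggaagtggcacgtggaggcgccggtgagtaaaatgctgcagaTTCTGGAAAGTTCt
Chordc1: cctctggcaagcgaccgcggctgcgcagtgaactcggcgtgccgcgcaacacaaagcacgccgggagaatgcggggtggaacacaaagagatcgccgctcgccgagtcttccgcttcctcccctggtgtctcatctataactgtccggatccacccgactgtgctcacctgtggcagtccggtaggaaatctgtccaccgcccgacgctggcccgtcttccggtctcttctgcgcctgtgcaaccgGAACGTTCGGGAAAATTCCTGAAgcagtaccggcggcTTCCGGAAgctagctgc
Hspa1a: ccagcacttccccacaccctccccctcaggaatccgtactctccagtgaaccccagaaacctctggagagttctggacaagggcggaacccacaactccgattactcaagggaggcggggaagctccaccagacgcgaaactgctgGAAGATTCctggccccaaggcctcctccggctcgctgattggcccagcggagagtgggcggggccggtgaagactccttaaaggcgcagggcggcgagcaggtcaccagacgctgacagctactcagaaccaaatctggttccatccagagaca
Stip1: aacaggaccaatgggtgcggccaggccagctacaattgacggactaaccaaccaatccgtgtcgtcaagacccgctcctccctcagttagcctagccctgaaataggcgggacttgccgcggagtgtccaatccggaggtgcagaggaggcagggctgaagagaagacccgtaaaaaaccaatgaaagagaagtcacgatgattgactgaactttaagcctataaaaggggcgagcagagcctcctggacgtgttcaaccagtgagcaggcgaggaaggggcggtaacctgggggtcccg
The Hsph1 window lies at chr5:149636287-149636586 on the minus strand. Its run of 3 units, TTCTGGAAAGTTC, falls 36 to 48 bases after the start site, and the separate pair TTCTCGAA lies 33 to 26 bases before it. The Chordc1 window lies at chr9:18292017-18292316 on the plus strand, and holds a block of joined matches of 23 bases that spans the start site, GAACGTTCGGGAAAATTCCTGAA, and a separate pair, TTCCGGAA, 33 to 40 bases after the start. The Hspa1a window lies at chr17:34972107-34972406 on the minus strand and holds a single pair, GAAGATTC, from 104 to 97 bases before the start. The Stip1 window lies at chr19:7039977-7040276 on the minus strand. A match is a run of letters and not a measured binding site, and the absence of these letters says nothing about other sites.

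Cells were kept at 500 or more UMIs (counted molecules), 300 or more genes and at most 20% mitochondrial UMIs, which left 19716 cells, 2438 to 7891 per library. Cells were then sorted into classes by the summed share of marker genes, and 6 classes with 20 or more cells in every library were used: endothelial cells (Pecam1, Cdh5, Cldn5 and others), pericytes or smooth muscle cells (Pdgfrb, Rgs5, Acta2), microglia or macrophages (C1qa, Cx3cr1, P2ry12), Müller glia (Rlbp1, Glul, Aqp4), rods (Nrl, Nr2e3, Sag) and bipolar cells (Trpm1, Grm6, Pcp2). The pericyte class thus admits smooth muscle cells and the microglial class macrophages, and both are named below by their first type. Although the labels give CD31+ as the cell type of every library, rods outnumbered endothelial cells, with 3741 and 1615 rods beside 1576 and 733 endothelial cells in Diabetic libraries 1 and 2, and 3559 and 1297 rods beside 704 and 302 endothelial cells in Ctrl libraries 1 and 2. Bipolar cells and microglia were the smallest classes, down to 22 microglia in Ctrl 2. Pairs of libraries shared 3 to 9 cell barcodes, at most 0.205% of the smaller. Levels are UMIs of a gene over all UMIs of the class in a library, scaled to 1000000 (CPM), and fold changes are edgeR's log2 Diabetic over Ctrl estimates, so a negative value means lower in Diabetic.

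In the sum over the 10 genes, the Diabetic libraries were below both Ctrl libraries in each of the 6 classes. The summed level was 2409 and 2027 CPM in the Diabetic and 3751 and 4791 CPM in the Ctrl libraries in microglia, a ratio of the means of 0.519. In endothelial cells it was 3306 and 3299.9 CPM in the Diabetic and 5047 and 5122 CPM in the Ctrl libraries, a ratio of 0.650, and in pericytes 2876 and 2666 CPM in the Diabetic and 3979 and 4047 CPM in the Ctrl libraries, a ratio of 0.691. Rods, bipolar cells and Müller glia stood closer to 1: the ratio was 0.743 in rods (3969 and 3920.4 CPM in the Diabetic and 5145 and 5468 CPM in the Ctrl libraries), 0.808 in bipolar cells and 0.822 in Müller glia. Most UMIs of the sum came from Hsp90aa1, Hsp90ab1 and Hspa8. The median log2 fold change over the members that passed the low-count filter was -1.48 in microglia (10 members), -0.82 in pericytes (9), -0.74 in endothelial cells (10), -0.61 in rods (10), -0.37 in bipolar cells (7) and -0.32 in Müller glia (10). Over all genes tested the median lay between -0.01 and 0.05 in the 6 classes. The Müller class also carried summed markers of the retinal pigment epithelium, 2694 and 4803 CPM in the Diabetic and 1717 and 732 CPM in the Ctrl libraries. Summed astrocyte markers there were 476 and 232 CPM in the Diabetic and 207 and 119 CPM in the Ctrl libraries. The part of such cells or their RNA in the Müller values was not tested.

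Gene by gene, both Diabetic libraries lay below both Ctrl libraries for all 10 members in rods, where 17.2% of the 17054 genes tested did so. The same held for 9 members in microglia, against 23.7% of genes, for 8 in pericytes (7 of the 9 that passed the low-count filter), against 12.4%, and for 7 in endothelial cells, against 24.3%. In Müller glia it held for 4 members, against 22.7% of genes, and in bipolar cells for 4 (3 of the 7 that passed the filter), against 15.8%. The shares of genes are over genes that passed the filter. The counts in endothelial cells restate the choice of the genes. Both Diabetic libraries were above both Ctrl libraries for Hspa1a and Hspa1b in pericytes and for no member in the other 5 classes. The share of all genes in that order was not counted, so nothing is read from this number.

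**Figure D1:**
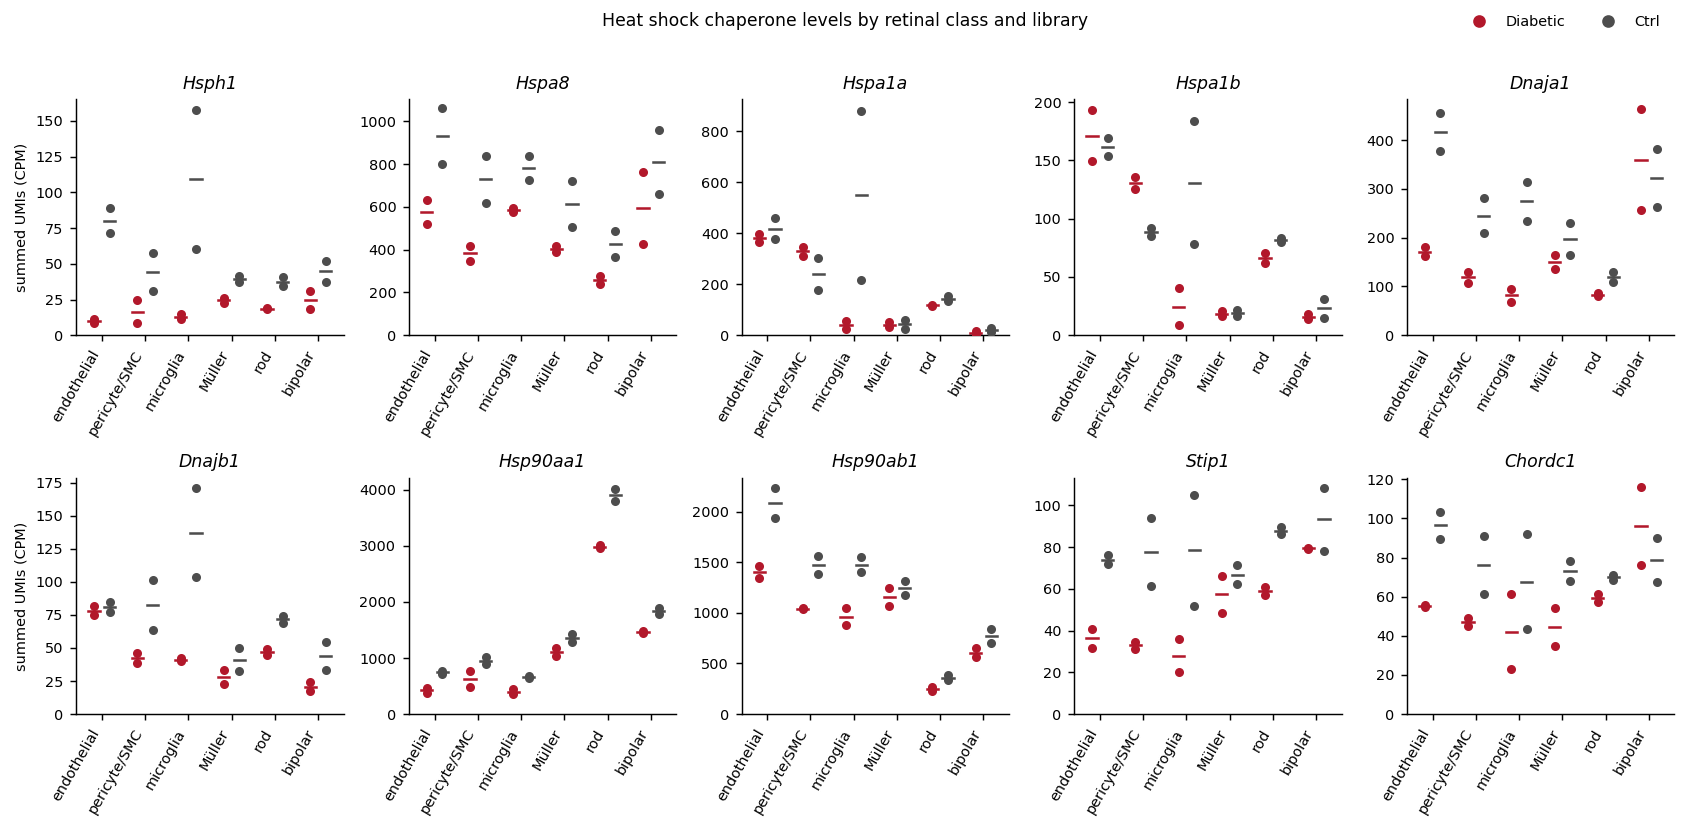
Level of each of the 10 chaperone genes (CPM, vertical axis from 0) in the 6 cell classes, 1 point per library, Diabetic left of Ctrl, bars at the mean of the 2 libraries. Among the endothelial values those of Hsph1 are the farthest apart relative to their level, and the microglial Hspa1a panel shows 1 Ctrl library at 879.5 CPM far above the other 3.

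**Figure D2:**
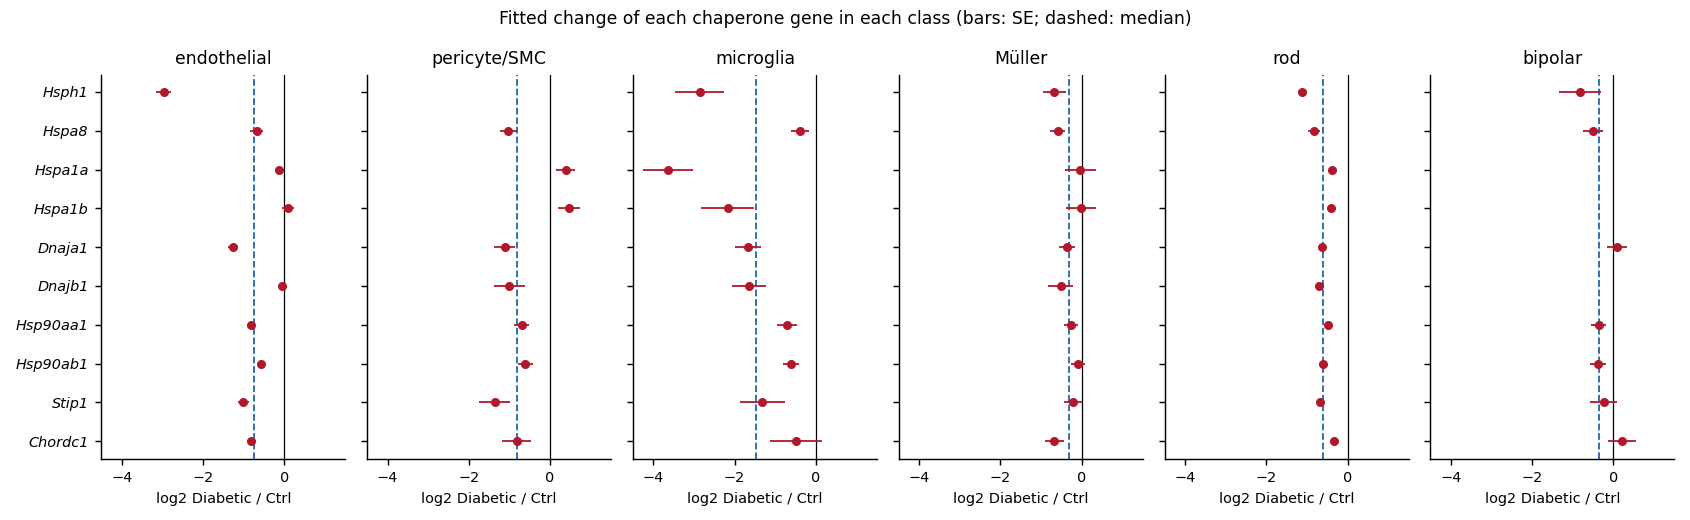
Log2 Diabetic over Ctrl fold change of each gene (points, bars ± 1 SE from edgeR) in the 6 classes, with the members' median as a dashed line and genes that failed the low-count filter left out. Hsph1 stands at the lowest value in endothelial cells and rods, and Hspa1a moves from the lowest value in microglia to above 0 in pericytes.

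Hsph1 (ENSMUSG00000029657, GRCm38 chr5:149614287-149636376, minus strand), the HSP110 protein that exchanges nucleotide on HSP70, showed the widest gap of the 10 genes in endothelial cells. It had 11.1 and 8.61 CPM in Diabetic libraries 1 and 2, against 71.4 and 89.1 CPM in Ctrl libraries 1 and 2, a log2 fold change of -2.97 ± 0.18. The Diabetic values were close to each other, and both lay far below either Ctrl value. In rods it had 19.01 and 18.3 CPM in Diabetic libraries 1 and 2, against 40.6 and 34.3 CPM in Ctrl libraries 1 and 2, a log2 fold change of -1.11 ± 0.10, with the groups again apart but closer. Microglia had 14.8 and 11.5 CPM in Diabetic libraries 1 and 2, against 60.6 and 158 CPM in Ctrl libraries 1 and 2 (-2.86 ± 0.60), the Ctrl libraries differing from each other more than in any other class. In Müller glia the values were 22.3 and 26.4 CPM in the Diabetic and 36.9 and 41.8 CPM in the Ctrl libraries (-0.68 ± 0.28) and in bipolar cells 31.2 and 18.3 CPM in the Diabetic and 52.1 and 37.4 CPM in the Ctrl libraries (-0.83 ± 0.52). Pericytes held only 3 and 7 Hsph1 UMIs in Diabetic and 19 and 7 in Ctrl libraries, 8.66 and 24.4 CPM in the Diabetic and 57.6 and 30.8 CPM in the Ctrl libraries, and the gene did not pass the filter there.

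Counted by cells rather than molecules, 3.998% and 4.50% of Diabetic endothelial cells carried at least 1 Hsph1 UMI, against 21.4% and 30.5% of Ctrl endothelial cells. Exact 95% binomial intervals, which cover counting error only, were 3.09 to 5.09% and 3.12 to 6.26% in the Diabetic libraries and 18.5 to 24.7% and 25.3 to 35.99% in the Ctrl libraries. The median depth was 2910 and 4274 UMIs per Diabetic endothelial cell and 3003.5 and 4185 per Ctrl cell, so the groups were of like depth. With each cell thinned to 1000 UMIs, and 180, 72, 69 and 33 shallower cells left out in Diabetic 1, Diabetic 2, Ctrl 1 and Ctrl 2, the shares were 1.003% and 0.605% in Diabetic and 6.46% and 7.81% in Ctrl libraries. Rods gave 13.8% and 17.6% in Diabetic and 25.5% and 24.4% in Ctrl libraries, and 2.03% and 1.26% against 3.63% and 3.32% after thinning. For Hspa1a, the endothelial shares overlapped between the groups, 40.2% and 42.2% in Diabetic and 42.3% and 41.4% in Ctrl libraries, or 22.9% and 21.6% against 23.9% and 18.6% after thinning. No retinal class is known to lack these chaperones, so the part of free RNA in a low share was not tested.

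**Figure D3:**
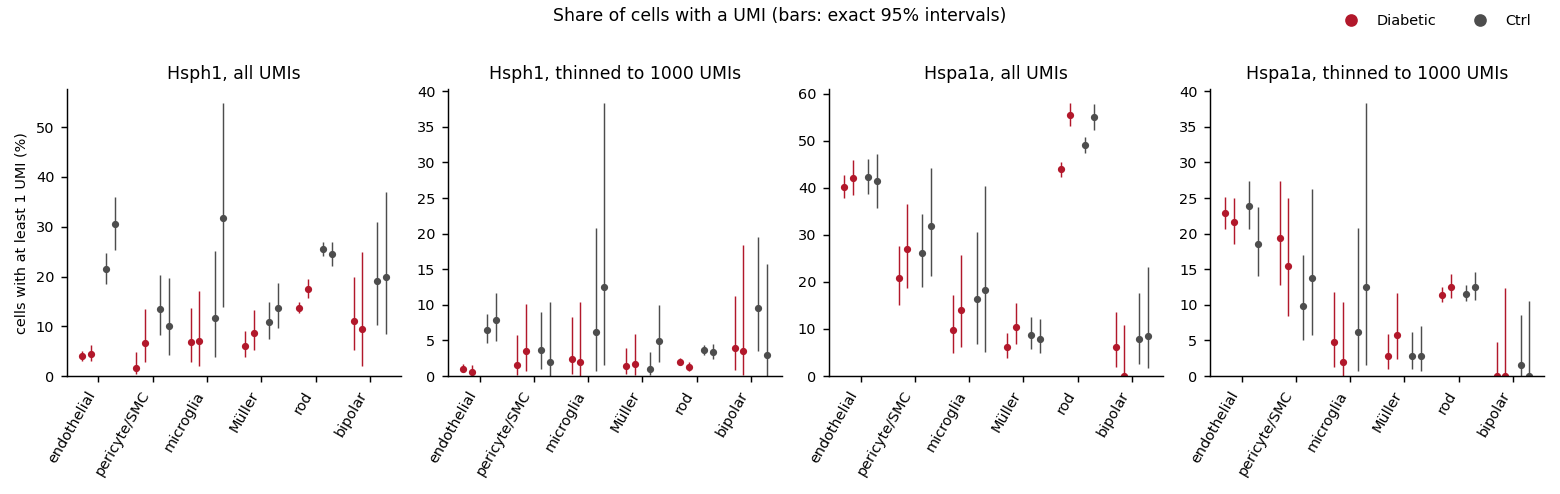
Percent of cells with at least 1 UMI of Hsph1 and of Hspa1a in each of the 6 classes and 4 libraries, before and after thinning every cell to 1000 UMIs, Diabetic left of Ctrl, bars giving exact 95% binomial intervals. The Hsph1 shares of endothelial cells are apart between the groups on both counts, and the Hspa1a shares of endothelial cells overlap.

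Hspa8 (ENSMUSG00000015656, chr9:40800984-40810087, plus strand) is the constitutive HSP70 of the cytosol. Its endothelial level was 522 and 633 CPM in Diabetic libraries 1 and 2, against 799.9 and 1061 CPM in Ctrl libraries 1 and 2, a log2 fold change of -0.68 ± 0.16. Rods had 242 and 276 CPM in the Diabetic and 365 and 489 CPM in the Ctrl libraries (-0.82 ± 0.15) and pericytes 349 and 418 CPM in the Diabetic and 619 and 840.1 CPM in the Ctrl libraries (-1.03 ± 0.20). The groups did not overlap in these 3 classes. Microglia had 574 and 596 CPM in the Diabetic and 728 and 840.1 CPM in the Ctrl libraries (-0.40 ± 0.22). Müller glia had 389.5 and 418 CPM in the Diabetic and 507 and 722 CPM in the Ctrl libraries (-0.59 ± 0.19). Bipolar cells had 426 and 762 CPM in the Diabetic and 659 and 958 CPM in the Ctrl libraries (-0.50 ± 0.24), and they alone of the 6 classes showed overlapping groups. The gene overlaps the small nucleolar RNAs Snord14c, Snord14d and Snord14e on its own strand.

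Hspa1a (ENSMUSG00000091971, chr17:34969190-34972156) and Hspa1b (ENSMUSG00000090877, chr17:34956436-34959238) are the stress-induced HSP70 genes, neighbours on the minus strand with 86.6% identical transcripts and 98.7% identical promoter windows. Reads of one may have been counted for the other or dropped. Their last 300 transcript bases, where 3′ reads fall, were 54.8% identical. In endothelial cells Hspa1a had 366 and 397 CPM in Diabetic libraries 1 and 2, against 377 and 458 CPM in Ctrl libraries 1 and 2 (-0.12 ± 0.12), with 1 Diabetic library between the Ctrl libraries. Hspa1b had 149.5 and 193 CPM in Diabetic libraries 1 and 2, against 153 and 169 CPM in Ctrl libraries 1 and 2 (0.10 ± 0.14), again overlapping. Neither gene separated the groups in this class. In pericytes both genes stood higher in both Diabetic libraries: Hspa1a had 312 and 345 CPM in the Diabetic and 176 and 304 CPM in the Ctrl libraries (0.38 ± 0.24) and Hspa1b 136 and 125 CPM in the Diabetic and 84.9 and 92.4 CPM in the Ctrl libraries (0.47 ± 0.28). Summed erythrocyte markers in pericytes were 153 and 69.6 CPM in the Diabetic and 39.4 and 51085 CPM in the Ctrl libraries, Ctrl library 2 far above the rest, and their part in the pericyte levels was not tested. The Hspa1a fold change ranged from -0.02 to 0.83 over the alternative settings, the lowest without Ctrl library 1. In rods both were lower, Hspa1a at 116 and 119 CPM in the Diabetic and 135 and 152 CPM in the Ctrl libraries (-0.39 ± 0.08) and Hspa1b at 61.9 and 70.2 CPM in the Diabetic and 79.9 and 83.6 CPM in the Ctrl libraries (-0.41 ± 0.08). Müller glia had low levels of Hspa1a, 31.1 and 50.4 CPM in the Diabetic and 23.4 and 61.1 CPM in the Ctrl libraries, and a log2 fold change of -0.04. Bipolar cells held 5 and 0 Hspa1a UMIs in Diabetic and 11 and 3 in Ctrl libraries, and the count of 0 of 163982 UMIs in Diabetic 2 allows up to 18.3 CPM (3 counts per library, counting error only).
Microglia gave the largest Hspa1a change of the 6 classes, 54.9 and 22.9 CPM in Diabetic libraries 1 and 2, against 217 and 879.5 CPM in Ctrl libraries 1 and 2, a log2 fold change of -3.64 ± 0.61. Those values are 26 and 8 UMIs in Diabetic and 25 and 67 in Ctrl libraries. Single cells carried much of the Ctrl signal: the cell with most Hspa1a UMIs held 10 and 1 UMIs in the Diabetic and 19 and 44 in the Ctrl libraries. Without that cell in each library, 16 and 7 UMIs remained in Diabetic and 6 and 23 in Ctrl libraries, or 34.2 and 20.4 CPM in the Diabetic and 55.7 and 379.9 CPM in the Ctrl libraries, and the log2 fold change was -2.63. Over all alternatives the Hspa1a change ranged from -4.46 to -2.36. Hspa1b in microglia had 40.1 and 8.60 CPM in the Diabetic and 77.96 and 184 CPM in the Ctrl libraries (-2.17 ± 0.65, and -3.71 to -1.52 over the alternatives). Diabetic microglia were also deeper, with a median of 4854 and 6234 UMIs per cell, against 1397 and 1364 in Ctrl. Summed microglial markers in these cells were 20199.6 and 19195 CPM in the Diabetic and 30438 and 30573 CPM in the Ctrl libraries, cone markers 1138 and 983 CPM in the Diabetic and 554 and 669 CPM in the Ctrl libraries and Müller markers 15753 and 10515 CPM in the Diabetic and 16639.8 and 2940.5 CPM in the Ctrl libraries. The Müller list includes Apoe. A cell over the Müller threshold stayed in the microglial class only if fewer than 3 Müller markers were detected in it. The Müller sums here may therefore rest on few genes, and how far single genes make them up was not tested. The part of the depth gap and of these markers in the microglial values was not tested.

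Of the J-domain proteins, which deliver clients to HSP70 and start its ATP cycle, Dnaja1 (ENSMUSG00000028410, chr4:40722150-40737149, plus strand) was lower in Diabetic endothelial cells and Dnajb1 (ENSMUSG00000005483, chr8:83608193-83612653, plus strand) was not. Endothelial Dnaja1 was 162 and 181 CPM in Diabetic libraries 1 and 2, against 378 and 455 CPM in Ctrl libraries 1 and 2 (-1.27 ± 0.12), with each Diabetic value below the lowest Ctrl value. Endothelial Dnajb1 was 81.7 and 74.8 CPM in Diabetic libraries 1 and 2, against 84.8 and 77.1 CPM in Ctrl libraries 1 and 2 (-0.05 ± 0.11), and the groups overlapped. In microglia Dnaja1 had 95.01 and 68.8 CPM in the Diabetic and 234 and 315 CPM in the Ctrl libraries (-1.67 ± 0.33). Dnajb1 there had 42.2 and 40.1 CPM in the Diabetic and 104 and 171 CPM in the Ctrl libraries (-1.65 ± 0.42), and both genes were apart. Pericytes had 129.9 and 108 CPM in the Diabetic and 209 and 282 CPM in the Ctrl libraries of Dnaja1 (-1.12 ± 0.25) and 46.2 and 38.3 CPM in the Diabetic and 63.7 and 101 CPM in the Ctrl libraries of Dnajb1 (-1.01 ± 0.38). Rods had 80.2 and 86.4 CPM in the Diabetic and 110.0 and 129 CPM in the Ctrl libraries of Dnaja1 (-0.62 ± 0.09) and 49.4 and 44.6 CPM in the Diabetic and 74.3 and 69.1 CPM in the Ctrl libraries of Dnajb1 (-0.71 ± 0.07), so Dnajb1, which overlapped between the groups in endothelial cells, was apart in rods. In bipolar cells Dnaja1 was 256 and 463 CPM in the Diabetic and 263 and 382 CPM in the Ctrl libraries (0.09 ± 0.26), the groups overlapping. Dnaja1 shares its region with Smu1 and Gm6297 on the other strand and Mir207 on the same strand.

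Both cytosolic HSP90 genes, the stress-responsive Hsp90aa1 (ENSMUSG00000021270, chr12:110690605-110702728, minus strand) and the constitutive Hsp90ab1 (ENSMUSG00000023944, chr17:45567775-45573271, minus strand), were lower in Diabetic endothelial cells. Hsp90aa1 had 459 and 384 CPM in Diabetic libraries 1 and 2, against 774 and 718 CPM in Ctrl libraries 1 and 2 (-0.82 ± 0.11). Hsp90ab1 had 1459 and 1341 CPM in Diabetic libraries 1 and 2, against 2229 and 1932 CPM in Ctrl libraries 1 and 2 (-0.56 ± 0.10). For each, both Diabetic libraries lay below both Ctrl libraries. Hsp90aa1 was most abundant in rods, at 3011 and 2956 CPM in the Diabetic and 3796 and 4023 CPM in the Ctrl libraries (-0.49 ± 0.09). Hsp90ab1 in rods was 271 and 231 CPM in the Diabetic and 382 and 333 CPM in the Ctrl libraries (-0.61 ± 0.10). Pericytes had 771 and 487 CPM in the Diabetic and 1019 and 889 CPM in the Ctrl libraries of Hsp90aa1 (-0.70 ± 0.19) and 1039.6 and 1044 CPM in the Diabetic and 1565 and 1386 CPM in the Ctrl libraries of Hsp90ab1 (-0.61 ± 0.18). In microglia Hsp90aa1 was 441 and 358 CPM in the Diabetic and 684 and 643 CPM in the Ctrl libraries (-0.71 ± 0.24). Hsp90ab1 there was 1049 and 877 CPM in the Diabetic and 1550.5 and 1405 CPM in the Ctrl libraries (-0.60 ± 0.20), and the groups were apart for both genes in both classes. The smallest changes of the pair were in Müller glia, -0.27 for Hsp90aa1 and -0.09 for Hsp90ab1. Bipolar cells gave -0.37 and -0.39. Summed rod markers in endothelial cells were 4931 and 3219 CPM in the Diabetic and 6142 and 3664 CPM in the Ctrl libraries. In microglia they were 5122 and 3606 CPM in the Diabetic and 6704 and 5422 CPM in the Ctrl libraries. Rods themselves had 54504 and 54252 CPM in the Diabetic and 60422 and 62749 CPM in the Ctrl libraries. The part of rod RNA in the chaperone levels and changes of the other classes was not tested.

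The co-chaperones Stip1 (ENSMUSG00000024966, chr19:7020702-7039967, minus strand), the adaptor between HSP70 and HSP90, and Chordc1 (ENSMUSG00000001774, chr9:18292125-18317442, plus strand), an HSP90-binding protein with CHORD domains, were both lower in Diabetic endothelial cells. Stip1 had 40.8 and 31.8 CPM in Diabetic libraries 1 and 2, against 76.01 and 71.9 CPM in Ctrl libraries 1 and 2 (-1.01 ± 0.14), the Diabetic libraries at about the level of one another and below both Ctrl libraries. Chordc1 had 54.8 and 55.7 CPM in Diabetic libraries 1 and 2, against 103 and 89.7 CPM in Ctrl libraries 1 and 2 (-0.81 ± 0.11). Its promoter window above holds the run of 3 units and that of Stip1 holds no match, and both genes were lower. In pericytes Stip1 was 34.7 and 31.3 CPM in the Diabetic and 94.02 and 61.6 CPM in the Ctrl libraries (-1.36 ± 0.39). Chordc1 was 49.1 and 45.2 CPM in the Diabetic and 90.99 and 61.6 CPM in the Ctrl libraries there (-0.82 ± 0.36). In microglia Stip1 was 35.9 and 20.1 CPM in the Diabetic and 51.97 and 105 CPM in the Ctrl libraries (-1.32 ± 0.56). Chordc1 was 61.2 and 22.9 CPM in the Diabetic and 43.3 and 91.9 CPM in the Ctrl libraries (-0.49 ± 0.63), with overlapping groups. Rods had 60.8 and 57.1 CPM in the Diabetic and 89.6 and 86.1 CPM in the Ctrl libraries of Stip1 (-0.67 ± 0.06) and 57.5 and 61.3 CPM in the Diabetic and 71.1 and 68.5 CPM in the Ctrl libraries of Chordc1 (-0.34 ± 0.06). In Müller glia the log2 fold changes were -0.21 for Stip1 and -0.68 for Chordc1, and in bipolar cells -0.24 and 0.20. Chordc1 overlaps Gm19178 on the other strand.

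Whether a gene's change differed in size between a class and endothelial cells was tested in 1 model with the library as a block (edgeR's quasi-likelihood test, adjusted over the 12745 genes tested for each class). Because the endothelial change was known when the genes were chosen, a smaller change elsewhere is partly set by that choice. In rods 1 of 10 members passed, against 0.761% of genes, and in Müller glia 1, against 0.29%, in both Hsph1. Hsph1 has the widest endothelial drop among genes picked for that drop, so nothing is read from these calls and its differences are a description: 1.86 ± 0.24 on the log2 scale in rods and 2.29 ± 0.40 in Müller glia, a less negative change than in endothelial cells. In microglia 2 of 10 passed, against 1.01%, and there the change was more negative than in endothelial cells, where neither gene had a drop that separated the groups, with a difference of -3.43 ± 0.50 for Hspa1a (adjusted p = 0.00025 by edgeR) and -2.24 ± 0.54 for Hspa1b (adjusted p = 0.029 by edgeR). As the genes were chosen with the endothelial values known, these p-values are no independent support. Leaving out the cell with most Hspa1a UMIs gave -2.55 for Hspa1a (adjusted p = 0.015 by edgeR) and -2.66 for Hspa1b (adjusted p = 0.02). The Hspa1a UMIs left in Ctrl library 2 still came from few cells, as only 4 of its 22 microglia held any. The Hspa1a difference therefore does not show a drop spread over the cells of the class, under this or the other alternatives. The Hspa1a difference passed under all 12 alternatives (-4.31 to -2.39), whereas Hspa1b missed the threshold without Diabetic library 2 (adjusted p = 0.34 by edgeR) and without Ctrl library 2 (adjusted p = 0.45), and with TMM over all sums (adjusted p = 0.057). By DESeq2 the calls were Hspa1a, Hspa1b and Dnajb1 (adjusted p = 0.037 for Dnajb1) in microglia and Hsp90ab1 beside Hsph1 in Müller glia (adjusted p = 0.0026 for Hsp90ab1).
In pericytes 0 of 10 members passed the edgeR test, against 0.0706% of genes, with 1 member at an unadjusted p under 0.05 and none by DESeq2. In bipolar cells 0 of 10 passed, against 0.0314%, with 6 at an unadjusted p under 0.05 and Dnaja1 alone by DESeq2 (adjusted p = 0.0047). The bipolar difference of Hsph1 was 2.12 ± 0.66 (adjusted p = 0.86 by edgeR), and the microglial one was 0.09 ± 0.66 (adjusted p = 1), both with errors wider than in rods or Müller glia. The difference was 1.36 ± 0.28 for Dnaja1 in bipolar cells (adjusted p = 0.077 by edgeR) and -0.66 ± 0.17 for Dnajb1 in rods (adjusted p = 0.069), neither past the threshold here, though Dnaja1 passed in 6 of 12 alternatives and Dnajb1 in 3 of 13. The mitochondrial share of UMIs moved with the groups in each class except Müller glia. Its median was 3.01% and 3.75% in Diabetic and 6.13% and 5.40% in Ctrl endothelial cells, and 1.75% and 2.23% against 3.25% and 2.98% in rods. Summed erythrocyte markers (4 haemoglobin genes) in endothelial cells were 6481 and 7301 CPM in the Diabetic and 2280.4 and 72.5 CPM in the Ctrl libraries. The part of either in the chaperone values was not tested.

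**Figure D4:**
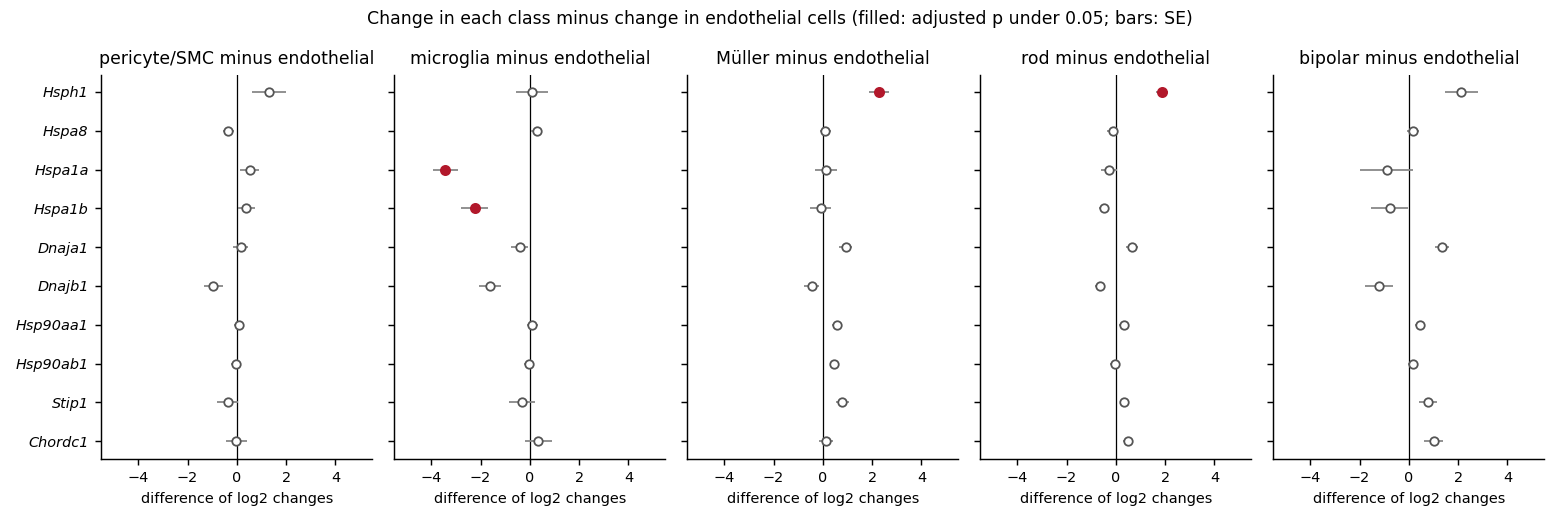
Difference of the log2 Diabetic over Ctrl change between each class and endothelial cells (points, bars ± 1 SE), per gene, filled where the edgeR adjusted p is under 0.05. A point above 0 means a less negative change than in endothelial cells, and Hsph1 in rods and Müller glia and Hspa1a and Hspa1b in microglia are filled.

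The levels of the 10 genes themselves, over all 4 libraries, differed between classes, which the choice of genes had not used. Against endothelial cells, 9 of 10 members differed in rods (edgeR, adjusted p under 0.05), where 75.9% of all genes did, 8 in Müller glia against 59.9%, 6 in bipolar cells against 55.6%, 5 in pericytes against 27.8% and 4 in microglia against 38.4%. With only 10 members, these counts were not tested against the shares of all genes, and nothing is read from how they compare. The pair of HSP90 genes went opposite ways in rods, bipolar cells, Müller glia and pericytes, with Hsp90aa1 above and Hsp90ab1 below the endothelial level. The log2 differences from endothelial cells were 0.95 and -0.69 in Müller glia and 0.36 and -0.56 in pericytes. Hsp90aa1 averaged 3447 CPM over the 4 rod sums, 1657 CPM in bipolar cells, 1235 CPM in Müller glia, 791 CPM in pericytes, 584 CPM in endothelial cells and 532 CPM in microglia. The first 3 were each apart from the next class in all libraries, while pericytes, endothelial cells and microglia overlapped. Rods exceeded endothelial cells by 2.47 ± 0.13 log2 units (adjusted p = 8.3e-18 by edgeR). The part of rod RNA in the Hsp90aa1 levels of the other classes was not tested. Hsp90ab1 ran from 305 CPM in rods and 687 CPM in bipolar cells, each apart from the next, to 1201 to 1740.5 CPM in the 4 overlapping classes of Müller glia, microglia, pericytes and endothelial cells, and the log2 level in rods differed from that in endothelial cells by -2.65 ± 0.12 (adjusted p = 3.0e-19 by edgeR).
Of the stress-induced HSP70 genes, both had their highest mean level in endothelial cells. Hspa1a averaged 399 CPM in endothelial cells, 293 CPM in microglia and 284 CPM in pericytes, with overlapping libraries. It was 131 CPM in rods, apart from pericytes but within the range of the microglial libraries (22.9 to 879.5 CPM), 41.5 CPM in Müller glia and 14.3 CPM in bipolar cells. Müller glia lay -3.53 ± 0.37 log2 units from endothelial cells (adjusted p = 9.2e-10 by edgeR). The microglial difference from endothelial cells, -1.19 ± 0.40 (adjusted p = 0.017 by edgeR), was lost without Diabetic library 1 (adjusted p = 0.26) and without Diabetic library 2 (adjusted p = 0.12), and by DESeq2 (adjusted p = 0.22). The mean of Hspa1b was highest in endothelial cells, 166 CPM, apart from pericytes at 109.6 CPM. Its microglial libraries ran from 8.60 to 184 CPM and overlapped the endothelial ones (149.5 to 193 CPM). Dnaja1 was lowest in rods, 101 CPM against 294 CPM in endothelial cells (-1.58 ± 0.18, adjusted p = 1.6e-09 by edgeR), and Hspa8 likewise, 343 CPM against 754 CPM (-1.27 ± 0.13, adjusted p = 3.7e-10). Dnajb1 lay -1.65 from endothelial cells in bipolar cells and -1.46 in Müller glia. Mean levels of Hsph1 ran from 28.04 CPM in rods to 61.1 CPM in microglia with every neighbouring pair overlapping over the 4 libraries, and no class passed the test against endothelial cells for it. This order joins groups that differ: Hsph1 was lower in endothelial cells than in rods in both Diabetic libraries and higher in both Ctrl libraries. Stip1 (53.2 CPM in microglia to 86.4 CPM in bipolar cells) and Chordc1 (54.8 to 87.4 CPM) also had every neighbouring pair of classes overlapping. Against endothelial cells, Stip1 was higher in rods (0.34 ± 0.13, adjusted p = 0.024 by edgeR, and 0.11 without Diabetic library 1). Chordc1 was lower in Müller glia (-0.51 ± 0.17, adjusted p = 0.0092 by edgeR, and 0.12 by DESeq2) and in rods (-0.31 ± 0.14, adjusted p = 0.036 by edgeR), the rod call being kept in 5 of 12 alternatives. In the Diabetic libraries Chordc1 was higher in rods, 57.5 and 61.3 CPM against 54.8 and 55.7 CPM in endothelial cells. It was lower in rods only in the Ctrl libraries, 71.1 and 68.5 CPM against 103 and 89.7 CPM. Calls were also lost under some alternatives for Hsp90aa1 in pericytes (kept in 6 of 12), Hspa1b in pericytes (10 of 12) and Hspa8 in bipolar cells (8 of 11), so the counts of members called depend on the settings.

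Genes of 10 other lists (89 genes, chosen with earlier results of these data known) were then tested within each class, where edgeR called 2.24% of genes higher and 1.16% lower in Diabetic endothelial cells, 4.01% and 3.47% in rods, 3.95% and 2.42% in microglia, 0.939% and 0.088% in Müller glia, 0.122% and 0.122% in pericytes, and 0.0357% and 0.0715% in bipolar cells. Scaled to library totals instead of TMM, the rod calls were 1255 higher and 242 lower, against 684 and 592, and the pericyte calls 9 and 2, against 7 and 7. Of the HSP90 partners, 3 of 10 fell and 1 rose in endothelial cells, with a median log2 fold change of -0.33 beside -0.01 over all genes. Cacybp, a protein that binds HSP90 and Siah1, had 82.9 and 75.6 CPM in Diabetic libraries 1 and 2, against 159 and 153 CPM in Ctrl libraries 1 and 2 (-0.97 ± 0.09, adjusted p = 0.0009 by edgeR). Fkbp4, a prolyl isomerase of steroid receptor complexes, had 104 and 98.03 CPM in the Diabetic and 153 and 179 CPM in the Ctrl libraries (-0.70 ± 0.10, adjusted p = 0.0087 by edgeR, and 0.066 without Diabetic library 2). Its relative Fkbp5, which glucocorticoids induce, rose, with 32.7 and 39.7 CPM in Diabetic libraries 1 and 2, against 13.02 and 10.9 CPM in Ctrl libraries 1 and 2 (1.56 ± 0.21, adjusted p = 0.005 by edgeR). Cacybp and Fkbp5 kept their calls under all 13 alternatives.
Of 17 HSP70-system genes (median log2 fold change -0.10), 1 fell in endothelial cells: St13, an HSP70-binding adaptor, with 143 and 148 CPM in the Diabetic and 213 and 189 CPM in the Ctrl libraries (-0.46 ± 0.10, adjusted p = 0.041 by edgeR, and 0.21 without Diabetic library 2 and 0.17 without Diabetic library 1). It also fell in microglia (-1.40 ± 0.32, adjusted p = 0.027 by edgeR), a call lost without either Diabetic library or Ctrl library 1 (adjusted p up to 0.39). Of 7 mitochondrial chaperones (median -0.21), the chaperonin subunits Hspd1 and Hspe1 fell in endothelial cells, Hspd1 with 83.1 and 76.5 CPM in the Diabetic and 137 and 114 CPM in the Ctrl libraries (-0.66 ± 0.11, adjusted p = 0.014 by edgeR). Hspe1 had 92.5 and 98.7 CPM in the Diabetic and 131 and 135 CPM in the Ctrl libraries (-0.47 ± 0.10, adjusted p = 0.039 by edgeR). Without Diabetic library 2 the adjusted p was 0.11 for Hspd1 and 0.14 for Hspe1, and without Diabetic library 1 it was 0.23 for Hspe1. Of 4 small heat shock proteins (median 0.00), Hspb8 rose in endothelial cells, with 37.7 and 39.7 CPM in the Diabetic and 19.7 and 23.6 CPM in the Ctrl libraries (0.86 ± 0.16, adjusted p = 0.024 by edgeR, and 0.15 without Diabetic library 2). DESeq2 called Hspd1 but not St13, Hspe1 or Hspb8. The endoplasmic reticulum chaperones (13 genes, median log2 fold change 0.13) and the TRiC chaperonin (8 genes, median -0.20) had 0 genes called in endothelial cells by edgeR. An unadjusted p under 0.05 was seen for 2 and 3 of these genes, and DESeq2 called none. The proteasome and ubiquitin list had 0 of 9 called there by edgeR or DESeq2 and 2 at an unadjusted p under 0.05, with a median log2 fold change of 0.09. The list of heat shock factors had 0 of 3 called there by edgeR or DESeq2 and 1 at an unadjusted p under 0.05. Hsf1, the main stress-activated factor, had 26.8 and 28.2 CPM in the Diabetic and 36.6 and 43.1 CPM in the Ctrl libraries in endothelial cells (-0.51 ± 0.15, adjusted p = 0.12 by edgeR), lower in both Diabetic libraries without passing the test. Its fold change ranged from -0.65 to -0.40 over the 13 alternatives, and it passed in 2 of them. Hsf2 had 20.7 and 21.04 CPM in the Diabetic and 20.4 and 21.3 CPM in the Ctrl libraries (0.01 ± 0.18, adjusted p = 0.99).
In rods 25 genes of the lists were called, and these calls leaned on single libraries. Without Diabetic library 1 none of the 25 was still called, without Ctrl library 2 1, without Ctrl library 1 6 and without Diabetic library 2 7, although all 25 kept their direction each time. Over all genes the number called in these 4 cases was 45, 67, 352 and 327 against 1276 with the 4 libraries. Endoplasmic reticulum chaperones accounted for 5 of them, all lower: Calr, a lectin chaperone, 192 and 190.2 CPM in the Diabetic and 268 and 278 CPM in the Ctrl libraries (-0.61 ± 0.06, adjusted p = 0.011 by edgeR), Hspa5, the HSP70 of that compartment (-0.54 ± 0.07, adjusted p = 0.017), and Hsp90b1, its HSP90 (-0.52 ± 0.07, adjusted p = 0.02), were the largest. HSP90 partners gave 4 lower, among them Ahsa1, an activator of the HSP90 ATPase (-0.50), and Cacybp (-0.41), and 1 higher, Fkbp5, at 29.5 and 29.1 CPM in the Diabetic and 18.3 and 17.6 CPM in the Ctrl libraries (0.61 ± 0.08, adjusted p = 0.018 by edgeR). The mitochondrial chaperones Hspe1 (-0.42), Trap1 (-0.38) and Hspd1 (-0.37) were lower, as were Hspa4 (-0.27), an HSP110 relative, St13 (-0.28), Hspb6 (-0.49), Cct4 of the TRiC ring (-0.29) and Psmd11 of the proteasome lid (-0.34). The HSP70 system also had 1 gene called higher in rods, Hspa2, named after its values were seen, with 21.7 and 18.9 CPM in the Diabetic and 7.75 and 6.88 CPM in the Ctrl libraries (1.37 ± 0.12, adjusted p = 0.0098 by edgeR). Microglia gave 1 further call, Hspa5 (-0.97 ± 0.23, adjusted p = 0.035 by edgeR, 0.42 without Diabetic library 1 and 0.26 without Diabetic library 2), which was kept in 6 of 12 alternatives. DESeq2 called no gene of the chaperone lists in microglia. No gene of the 6 chaperone lists was called in pericytes, Müller glia or bipolar cells by edgeR or by DESeq2, with 4, 5 and 5 genes at an unadjusted p under 0.05. Over all genes edgeR called 14, 105 and 6 in these classes.

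The cold-inducible RNA-binding genes Cirbp and Rbm3, which mild cooling raises in mammalian cells and heat lowers, were higher in Diabetic endothelial cells. There 7 of the 10 chaperones were lower in both Diabetic libraries, while Hspa1a, Hspa1b and Dnajb1 overlapped between the groups. In endothelial cells Cirbp had 183 and 165 CPM in Diabetic libraries 1 and 2, against 99.2 and 102 CPM in Ctrl libraries 1 and 2 (0.80 ± 0.09, adjusted p = 0.0025 by edgeR), a call kept under all 13 alternatives. Rbm3 had 357 and 363 CPM in the Diabetic and 247 and 249 CPM in the Ctrl libraries (0.55 ± 0.09, adjusted p = 0.016 by edgeR, and 0.18 without Diabetic library 2). Both genes were higher in both Diabetic libraries. Cirbp also rose in rods, 534 and 474 CPM in the Diabetic and 300.5 and 327 CPM in the Ctrl libraries (0.58 ± 0.09, adjusted p = 0.024 by edgeR), but without Diabetic library 1 or either Ctrl library the call was lost (adjusted p up to 0.089). Rbm3 rose in microglia, with 513 and 622 CPM in the Diabetic and 208 and 328 CPM in the Ctrl libraries (1.13 ± 0.29, adjusted p = 0.047 by edgeR). In Müller glia it rose as well, with 235 and 251 CPM in the Diabetic and 135 and 152 CPM in the Ctrl libraries (0.78 ± 0.17, adjusted p = 0.042 by edgeR). Rods had 155 and 148 CPM in the Diabetic and 113 and 116 CPM in the Ctrl libraries (0.31 ± 0.06, adjusted p = 0.04 by edgeR). Each of these 3 calls was lost on leaving out at least 2 of the libraries, with adjusted p up to 0.29 in microglia, 0.14 in Müller glia and 0.16 in rods. Neither gene was called by edgeR or DESeq2 in pericytes (0.77 for Cirbp and 0.40 for Rbm3) or bipolar cells (0.63 and 0.53), where 1 and 2 of them had an unadjusted p under 0.05.

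**Figure D5:**
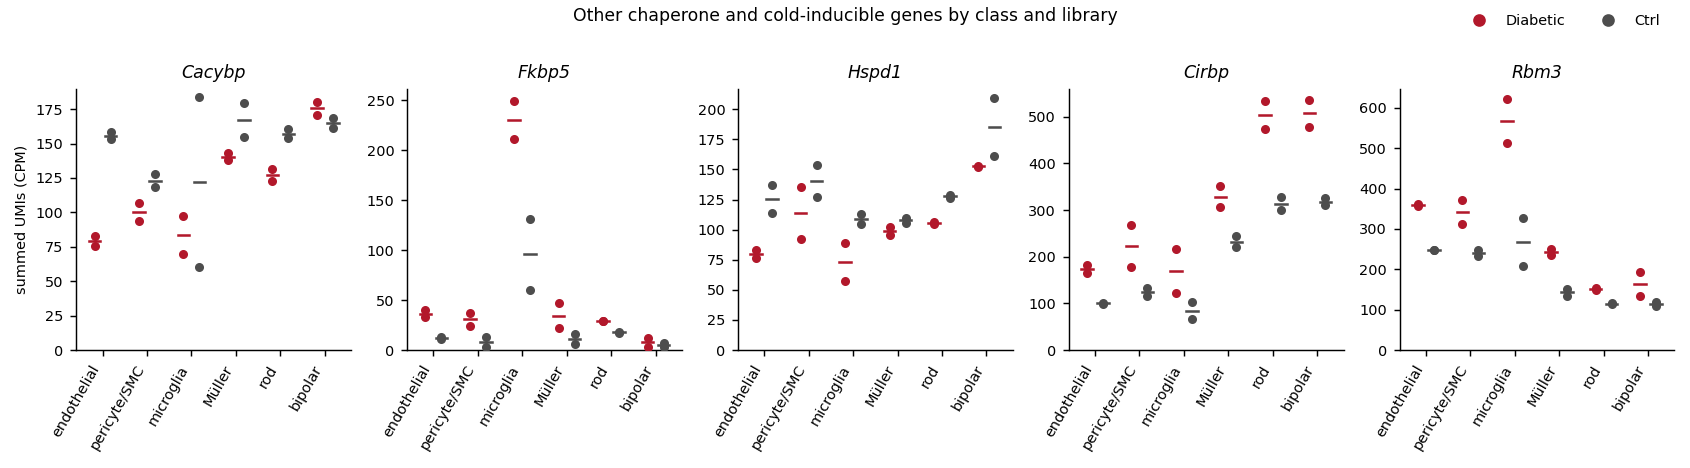
Level (CPM, vertical axis from 0) of 5 genes outside the 10 members, Cacybp, Fkbp5, Hspd1, Cirbp and Rbm3, in the 6 classes, 1 point per library, Diabetic left of Ctrl, bars at the mean of the 2 libraries. In endothelial cells Cacybp and Hspd1 sit lower and Fkbp5, Cirbp and Rbm3 higher in both Diabetic libraries than in both Ctrl libraries.

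Immediate early genes, transcription factors and feedback genes that dissociation and other stimuli switch on within minutes, were mostly higher in Diabetic endothelial cells, where 7 of the 10 chaperones were lower in both Diabetic libraries. Of 16 tested, 11 rose and 0 fell, with a median log2 fold change of 0.69. Fos had 2458 and 2637 CPM in Diabetic libraries 1 and 2, against 917 and 849 CPM in Ctrl libraries 1 and 2 (1.54 ± 0.10, adjusted p = 0.0001 by edgeR). Atf3, a stress-responsive factor, had 204 and 211 CPM in the Diabetic and 68.6 and 83.97 CPM in the Ctrl libraries (1.47 ± 0.12, adjusted p = 0.00031 by edgeR) and Nr4a1, an orphan nuclear receptor, 166 and 172 CPM in the Diabetic and 58.4 and 78.2 CPM in the Ctrl libraries (1.34 ± 0.13, adjusted p = 0.0011). These 3 calls held under all 13 alternatives, while of all 21 genes of the 10 lists called in endothelial cells 9 were still called without Diabetic library 2. Elsewhere edgeR called 1 gene each in bipolar cells, Müller glia and microglia and 4 in rods, and DESeq2 8 in rods, 1 in microglia and 0 in bipolar cells and Müller glia. Egr1 rose in bipolar cells, 259.9 and 305 CPM in the Diabetic and 59.9 and 97.3 CPM in the Ctrl libraries (1.83 ± 0.27, adjusted p = 0.0013 by edgeR, 0.054 without Ctrl library 1, 0.18 by DESeq2 and 0.051 without the cell with most Hspa1a UMIs), and Klf2 in Müller glia (0.91 ± 0.19, adjusted p = 0.033 by edgeR, and 0.18 without Diabetic library 1). Fosb fell in microglia, 149.9 and 65.9 CPM in the Diabetic and 407 and 761 CPM in the Ctrl libraries (-2.34 ± 0.41, adjusted p = 0.012 by edgeR, and 0.13 without Diabetic library 1). In rods Junb (0.77) and Atf3 (0.59) were higher and Btg2 (-0.36) lower, all lost without Diabetic library 1 (adjusted p of 0.13, 0.13 and 0.12 by edgeR). Whether dissociation differed between the libraries was not tested.

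Among 4103 genes at 20 CPM or more in every class, those whose level followed the summed members most closely over the 24 class by library sums, each class centred on its own mean, were Mat2a (Pearson r = 0.868), which makes S-adenosylmethionine, Zkscan3 (0.838), a zinc finger protein, H2aw (0.825), a histone H2A gene, Ckb (0.820), brain creatine kinase, and Btbd9 (0.807). The sums share libraries and depth, so r is a description. Barcodes that carried both endothelial and pericyte markers and were left out of the classes (742 and 349 in Diabetic libraries 1 and 2, 384 and 166 in Ctrl libraries 1 and 2) had Hsph1 at 12.4 and 12.8 CPM in the Diabetic and 78.8 and 80.4 CPM in the Ctrl libraries. Over all kept cells, with no gate, Hsph1 was 18.3 and 17.8 CPM in the Diabetic and 46.7 and 44.00 CPM in the Ctrl libraries and Hspa1a 175 and 184 CPM in the Diabetic and 164 and 192 CPM in the Ctrl libraries. The Hsph1 values were apart between the groups in both sets of barcodes, and the Hspa1a values over all kept cells overlapped.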

How the data were processed

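Per the labels, 10x Chromium 3′ v3 libraries were made from retinal cells enriched with CD31 beads. The authors deposited filtered matrices of raw UMI counts per gene and cell barcode, 29792902 to 58792636 UMIs and 3091 to 7991 barcodes per library, with mm10 as the build and Cell Ranger 7.0.0 and STAR 2.7.10b as tools per the submitters' processing notes. Here cells were kept at 500 UMIs, 300 genes and at most 20% mitochondrial UMIs. A cell entered a class when 3 or more of its markers were detected and their UMIs per 10000 reached a threshold (endothelial 50, pericyte 60, microglia 40, rod 200, bipolar 30, Müller 80, cone 50, neutrophil 40). Cells over the threshold of several classes (3607) were set apart, and 302 cells lay within 25% above a threshold. The thresholds were set after marker shares were seen. Cone and neutrophil barcodes were not used. Setting mixed cells apart was the treatment of doublets, and removing doublets by Scrublet was an alternative. Scrublet's own threshold called 0 to 0.614% of the cells of a library. In all libraries but Ctrl library 1 it called so few that the cells with the highest scores were taken instead. Their number was set by an expected doublet rate, and they made up 2.42 to 6.86% of cells.

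UMIs were summed per class and library. edgeR 4.0.16 (R 4.3.3, TMM, filterByExpr, quasi-likelihood test, Benjamini-Hochberg adjustment over all genes tested) was fitted within each class, and over all sums with the library as a block for differences between classes. Calls are at an adjusted p under 0.05, and DESeq2 1.42.0 was an alternative. Scripts were tested on simulated counts. Clusters used scanpy 1.11.5 and leidenalg 0.10.2, intervals scipy 1.17.1. Genes named from the lists are the up to 3 called genes with the largest log2 fold change per list and class at a mean of 20 CPM or more, plus Hsf1, Hsf2, Cirbp and Rbm3, and the 5 genes most correlated with the members. Gene positions are those of GENCODE on GRCm38. The members and lists were chosen with earlier results of these data known. Leaving out the cell with most Hspa1a UMIs, and all alternatives for level differences, were chosen after seeing the data. UMIs remove PCR copies, and intervals and limits cover counting error only.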

Additional observations from a re-analysis of the deposited data

Results flagged for a closer look

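The change differed from that in endothelial cells by a test of the difference itself for 4 pairs of gene and class. Hspa1a in microglia differed by -3.43 on the log2 scale and Hspa1b in microglia by -2.24, more negative in both, while neither gene was apart between the groups in endothelial cells. Hsph1 differed by 2.29 in Müller glia and by 1.86 in rods, less negative in both. Because the genes were chosen for their endothelial drop, which is widest for Hsph1, the Hsph1 differences are a description and no support. The Hspa1a and Hspa1b differences are no independent support either, as the endothelial values were known. In Ctrl library 2, 1 microglial cell held 44 of the 67 Hspa1a UMIs, and only 4 of 22 microglia held any. The Hspa1b difference ranged from -4.05 to -1.42 over the alternatives.

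Without a test, both Diabetic libraries lay above both Ctrl libraries in pericytes and below both in microglia and in rods for the stress-induced HSP70 genes. The Diabetic over Ctrl ratio in pericytes was 1.37 for Hspa1a and 1.47 for Hspa1b, and its difference from microglia and rods was not tested. For Hspa1a the lower Diabetic and the higher Ctrl value in pericytes were close, 312 and 304 CPM. How many of all genes lay higher in both Diabetic libraries in pericytes was not counted.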

How the results depend on the processing

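The median change of the members stayed below 0 in every class under each alternative that gave a value, and the cause of the shifts below was not tested. It was -0.32 in Müller glia, -0.47 with classes from clusters and -0.61 to -0.16 leaving out 1 library, and in rods -0.61, or -0.51 with library totals in place of TMM, which moved the median of all genes to 0.107 in rods and 0.10 in pericytes. Counts of called genes moved more. For Diabetic against Ctrl they were 419 in endothelial cells, 14 in pericytes, 255 in microglia, 105 in Müller glia, 1276 in rods and 6 in bipolar cells. With no filter on low counts they were 1055, 37, 463, 369, 3294 and 24 in that order. DESeq2 gave 3 in pericytes, 109 in microglia and 0 in bipolar cells. Classes from clusters gave 642 in endothelial cells, 0 in pericytes and 377 in Müller glia, with no value for microglia and bipolar cells. The stricter gate gave 156 in microglia and 3 in bipolar cells, and a minimum of 1000 UMIs gave 1 in bipolar cells. Without the cell with most Hspa1a UMIs, 61 were called in Müller glia and 0 in bipolar cells. Leaving out 1 library gave 158 to 852, 4 to 31, 1 to 505, 126 to 373, 45 to 352 and 12 to 21. The lone library then left in a group is assumed to vary like the others.

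The replicate block, with the replicate numbers as pairs, gave 1172 in endothelial cells, 38 in pericytes, 4762 in rods and 36 in bipolar cells. Nothing in the labels says that equal numbers share an animal or a day. Deviations of libraries with equal numbers correlated at 0.306 in endothelial cells and 0.462 in rods and between -0.0012 and 0.0737 in the other classes.

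For the change in a class minus that in endothelial cells, 9 genes were called in pericytes, 129 in microglia, 37 in Müller glia, 97 in rods and 4 in bipolar cells. No filter gave 35, 208, 103, 189 and 14. DESeq2 gave 20 in Müller glia, 49 in rods and 8 in bipolar cells, and clusters gave 1 in pericytes, 99 in Müller glia and 198 in rods. The stricter gate gave 3 in pericytes, and removing Scrublet doublets gave 19 in pericytes and 7 in bipolar cells. Leaving out 1 library gave 1 to 13, 32 to 118, 13 to 42, 41 to 395 and 2 to 4. Level differences between classes kept their counts within 1.5 times. The number of microglia (22 in Ctrl library 2) and of bipolar cells limits the precision in those classes.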
